A study of Homo sapiens with 2 samples.

Results

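The 10 AP-1 transcription factor genes JUN, JUNB, JUND, FOS, FOSB, FOSL1, FOSL2, ATF3, BATF and BATF3 were examined for lysine lactylation in CAL27 cells, a human line established from a squamous carcinoma of the tongue. They were taken by name from 20037 protein-coding genes of the annotation. CUT&Tag, in which an antibody guides a protein A-Tn5 transposase to cut beside its target, was done with an antibody to lactyllysine on any protein. There were 2 libraries, 1 from CAL27 cells given 10 mM lactate for 24 hours and 1 from CAL27 cells with no treatment. Around each gene, every peak region that overlapped the gene body or the 20 kb to either side of it was counted. That gave 40 of 50352 regions in the library labelled lactate and 35 of 43680 in the library labelled untreated, here the lactate-labelled and the untreated-labelled library. With 1 library per condition, differences between the conditions have no replicate check, and no p-value is given. The 95% intervals are exact binomial ones and cover counting error only. Coordinates are in hg38. Neither library is a control without the antibody, so cutting by the transposase in open chromatin cannot be told apart from lactylation in these values.

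The header of each peak list names the other sample as its run and its input, and all 58929 peak names in the lactate-labelled list and all 49750 in the untreated-labelled list do the same. Groups follow the sample labels, and exchanging the lists would turn each direction between them. The lactate-labelled library held 15120031 tags and the untreated-labelled library 15696147. Among 13 squamous epithelial marker genes, 9 and 8 had a region within 1 kb of a gene end in the lactate-labelled and the untreated-labelled library, and all 13 had one inside or within 20 kb in each. Over all protein-coding genes the shares were 49.5% and 43.5% at the ends and 83.9% and 81.0% inside or within 20 kb. KRT14, TP63, CDH1 and DSG3 had none at an end in either. Markers of other cell types had end regions in 3 and 2 of 6 for fibroblasts, 0 and 2 of 5 for endothelium and 2 and 2 of 6 for blood cells, in the same order of libraries. With the 20 kb window, the blood set rose to 6 and 5, the endothelium set to 4 and 4, the fibroblast set to 5 and 3. A region in that window was thus not particular to squamous markers. A chromatin mark does not measure RNA, so these counts describe the mark and not the identity of the cells.

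AP-1 is a family of dimers of basic leucine zipper proteins that bind the element TGANTCA and, in some pairings, the cyclic AMP response element TGACGTCA. JUN proteins pair with each other or with FOS proteins, whereas FOS proteins need a JUN partner. ATF3, BATF and BATF3 join JUN proteins in dimers that often repress or redirect transcription. Several of the genes are immediate early genes that mitogen-activated kinases switch on, and in squamous epithelium AP-1 controls differentiation genes such as involucrin.

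Promoter sequences, which run from 250 bases before to 50 bases after an annotated start, were matched in RefSeq (GRCh38.p14) for 8 of the 10 genes. FOSL1 and BATF3 were not matched. A gene may have further starts with no sequence in this set, and those were not examined. Regions lay over the promoter sequences of JUNB, JUN, JUND and FOSL2 in the lactate-labelled library and of JUN, JUND and FOSL2 in the untreated-labelled library. That was 4 of 8 and 3 of 8 genes, against 46.1% and 40.2% of 15843 protein-coding genes. Regions in both libraries covered 3 of 8 genes (36.9% of all genes), the lactate-labelled library alone 1 (9.19%), the untreated-labelled library alone 0 (3.33%), and neither covered 4 (50.6%). The sequences that a region covered are shown with ATF3, which had none there and shares a motif with JUN. They run 5′ to 3′ on the gene's strand, and capitals mark a match to TGANTCA, TGACGTCA, TGACGCAA, TGACATCA or the CArG box on either strand.

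JUN, minus strand, chr1:58783998-58784297: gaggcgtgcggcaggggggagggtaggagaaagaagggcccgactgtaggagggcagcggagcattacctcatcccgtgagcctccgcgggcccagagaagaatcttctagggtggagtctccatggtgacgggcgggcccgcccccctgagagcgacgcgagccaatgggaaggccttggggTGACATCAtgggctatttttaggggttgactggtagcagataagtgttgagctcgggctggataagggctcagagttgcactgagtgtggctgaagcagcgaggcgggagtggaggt
JUND, minus strand, chr19:18281573-18281872: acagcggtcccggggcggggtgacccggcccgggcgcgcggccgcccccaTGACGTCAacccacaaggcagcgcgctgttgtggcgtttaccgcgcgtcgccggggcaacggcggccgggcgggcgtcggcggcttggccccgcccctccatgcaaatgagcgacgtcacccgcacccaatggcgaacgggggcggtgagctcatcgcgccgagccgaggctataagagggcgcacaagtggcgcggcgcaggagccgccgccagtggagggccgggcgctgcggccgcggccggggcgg
FOSL2, plus strand, chr2:28392608-28392907: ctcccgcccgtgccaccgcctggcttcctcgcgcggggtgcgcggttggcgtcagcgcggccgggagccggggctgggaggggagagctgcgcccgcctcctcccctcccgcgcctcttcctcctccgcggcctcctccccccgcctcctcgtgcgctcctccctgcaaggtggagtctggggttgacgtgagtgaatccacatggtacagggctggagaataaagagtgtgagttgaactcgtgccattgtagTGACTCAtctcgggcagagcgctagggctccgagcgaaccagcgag
JUNB, plus strand, chr19:12791236-12791535: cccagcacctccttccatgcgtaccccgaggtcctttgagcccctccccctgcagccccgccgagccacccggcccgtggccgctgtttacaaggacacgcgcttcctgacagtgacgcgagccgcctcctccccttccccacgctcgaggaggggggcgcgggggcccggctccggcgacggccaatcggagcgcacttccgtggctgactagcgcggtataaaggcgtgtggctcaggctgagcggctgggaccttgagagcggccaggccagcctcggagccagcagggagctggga
ATF3, plus strand, first of 2 annotated starts, chr1:212565157-212565456: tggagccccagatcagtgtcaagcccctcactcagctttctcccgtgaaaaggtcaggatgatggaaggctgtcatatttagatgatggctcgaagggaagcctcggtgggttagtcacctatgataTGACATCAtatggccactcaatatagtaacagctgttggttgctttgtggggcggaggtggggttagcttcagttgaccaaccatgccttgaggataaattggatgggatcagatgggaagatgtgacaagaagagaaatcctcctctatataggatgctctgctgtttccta

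In JUN the capitals mark TGACATCA, the variant response element 67 bases before the start, and ATF3 held the same letters 123 bases before its first start. JUND held TGACGTCA 200 bases before the start, and FOSL2 held TGACTCA from 4 bases after it. The capital matches did not overlap another motif searched. Over 22199 promoters of the same length, TGANTCA was in 6.15%, TGACGTCA in 2.26%, TGACATCA in 2.13%, TGACGCAA in 0.653% and the CArG box in 1.25%. No match to TGACGCAA or the CArG box was found in these windows of the 8 genes. Sequence farther from the starts was not searched, so a site there would be missed. TATAAA was held by JUNB, FOS, FOSB and, before its second start and not in the sequence shown, ATF3 (9.47% of promoters), CCAAT by JUN, JUNB, JUND and ATF3 (34.7%), and GGGCGG by each of the 8 except JUNB (56.3%).

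The GC content of the covered promoters was 62.0% in JUN, 71.0% in JUNB, 77.0% in JUND and 68.7% in FOSL2, against a median of 62.3% over all promoters. FOS, at 64.7%, and FOSB, at 64.0%, had no region over the promoter and a higher GC content than JUN. The uncovered matched starts of ATF3 (48.0% and 46.3%) and BATF (46.0%) were lower. Over all promoters with a GC content of 60% or more, 50.9% were covered in the lactate-labelled and 43.7% in the untreated-labelled library, and of those under 50%, 9.04% and 7.59%.

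**Figure D1:**
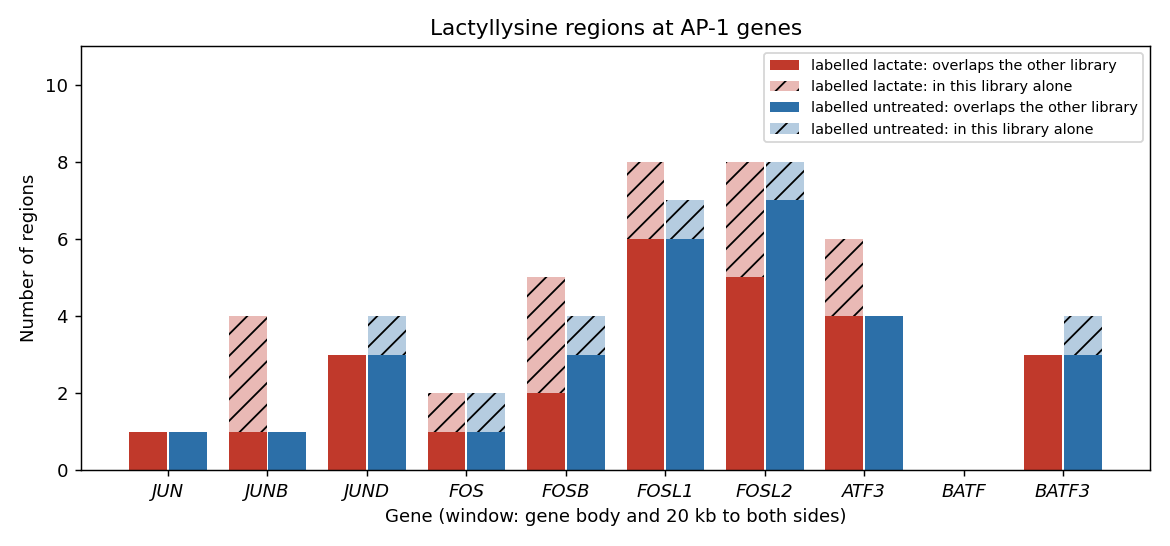
Number of regions (y axis) inside or within 20 kb of each AP-1 gene (x axis), for the lactate-labelled library (left bar, red) and the untreated-labelled library (right bar, blue), with 1 library each; solid parts overlap a region of the other library and hatched parts do not. FOSL1 and FOSL2 carried 7 to 8 regions in each library, JUN carried 1 in each and BATF none, and 3 of the 4 JUNB regions were in the lactate-labelled library alone.

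Regions were unevenly spread over the family. In both libraries 9 of the 10 genes had a region inside or within 20 kb, and the exception in each was BATF. Over all protein-coding genes the share was 83.9% in the lactate-labelled and 81.0% in the untreated-labelled library, 78.0% in both, 5.90% in the lactate-labelled library alone, 3.03% in the untreated-labelled library alone and 13.1% in neither, so the count of 9 is near the background. FOSL2 had 8 regions in each library, FOSL1 8 and 7, FOSB 5 and 4, and ATF3 6 and 4, in the lactate-labelled and the untreated-labelled library. Fewer lay at JUNB (4 and 1), JUND (3 and 4), BATF3 (3 and 4), FOS (2 and 2) and JUN (1 and 1). The median protein-coding gene had 2 in each library.

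By role, pooled over windows, the FOS members were the most densely covered and the ATF and BATF members the least when all regions were counted. The 4 FOS genes held 1.13 regions per 10 kb of window in the lactate-labelled library and 1.03 in the untreated-labelled library. The 3 JUN genes held 0.63 and 0.472, and the 3 ATF and BATF genes 0.422 and 0.375. The median over all protein-coding genes was 0.282 and 0.231 and the mean 0.359 and 0.299. Both were taken gene by gene, whereas the values by role are pooled over windows. Gene by gene, the order by role did not hold. FOS held 0.461 in each library and FOSB 1.06 and 0.848. JUN held 0.231 in each, JUNB 0.956 and 0.239, and JUND 0.715 and 0.954. ATF3 held 0.629 and 0.419 and BATF3 0.562 and 0.749, while BATF had no region. FOSL1 reached 1.65 and 1.44 regions per 10 kb, densities that 0.329% and 0.235% of protein-coding genes equalled or passed. Those regions were weak by fold, and of the 8 and 7 at FOSL1 only 1 and 0 reached a fold enrichment of 5, and 0 and 0 were left when each list was reduced to its strongest regions at equal length. At FOSL2 the density was 1.24 in each library, equalled or passed by 1.60% and 0.604% of genes. The order by role did not hold for stronger regions in the lactate-labelled library. At a fold enrichment of at least 5 the ATF and BATF genes held 0.328 and 0.0938 regions per 10 kb, the FOS genes 0.246 and 0.196 and the JUN genes 0.157 and 0.157, in the lactate-labelled and the untreated-labelled library. When both lists were reduced to the same number of strongest regions, the ATF and BATF genes, at 0.281, were again above the FOS genes, at 0.196, in the lactate-labelled library. Members are not replicates of a role, and no test of these differences was made.

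**Figure D2:**
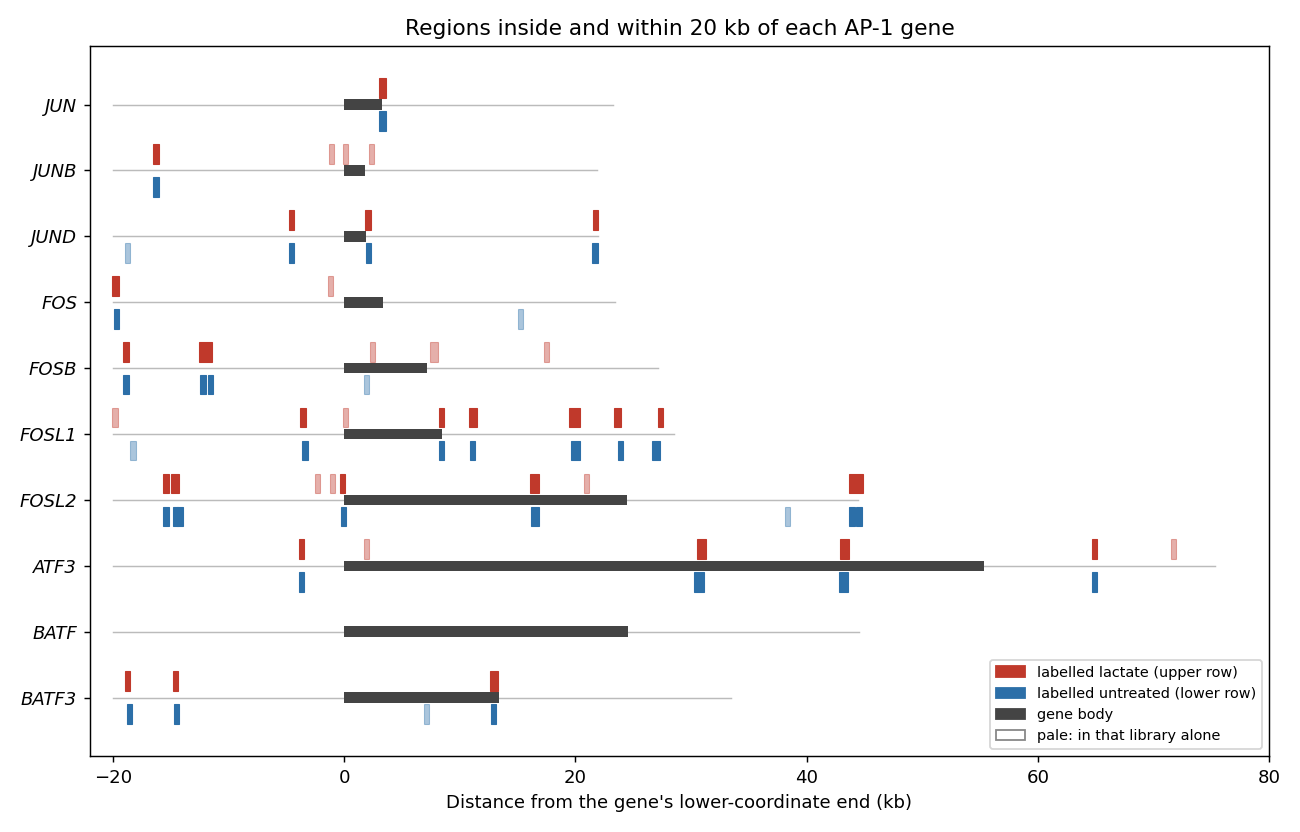
Position of each region relative to the lower-coordinate end of its gene (x axis, kb), 1 line per gene, with the lactate-labelled library above the line in red and the untreated-labelled library below it in blue; the dark bar is the gene body, the grey line the window of 20 kb to both sides, and pale boxes are regions in 1 library alone. Short regions are widened to be visible. JUN has a single box in each library at its upper end, whereas at FOSL1 and FOSL2 boxes lie below, over and above the gene, with gaps between them.

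JUN encodes c-Jun, the main transactivating partner of FOS proteins, on chromosome 1 from 58780791 to 58784047, minus strand. Its only region lay over the start, from 58783835 to 58784404 in the lactate-labelled and from 58783801 to 58784405 in the untreated-labelled library, 570 bp of overlap. The pileups at the summit, counted in tags, were 52 and 47, and the fold enrichments over local background 5.66 and 5.97. Per 1000000 tags the pileup ratio, lactate-labelled over untreated-labelled, was 1.15 (interval 0.759 to 1.74). The libraries thus differed by less than counting error at JUN. The region also reached the end of JUN-DT, a divergent noncoding transcript, and no other region lay in the window.

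JUNB, on chromosome 19 from 12791486 to 12793315, encodes a JUN protein that is a weaker activator than c-Jun and often opposes it. It was the gene whose counts differed most between the libraries, with 4 regions in the lactate-labelled library and 1 in the untreated-labelled library. The 3 in the lactate-labelled library alone lay from 12790171 to 12790381, from 12791353 to 12791563 and from 12793624 to 12794005. Their pileups were 30, 32 and 22 tags and their fold enrichments 2.87, 3.12 and 2.43. All were above the list's median pileup of 15 but among its weakest by fold, at percentiles of 2.21, 5.45 and 0.327, since their local background was 0.649, 0.632 and 0.561 tags per 1000000 against a median of 0.146. The middle one covered 183 of the 300 promoter bases, with its summit 27 bases from the start, and reached the end of the neighbouring gene HOOK2, which also holds the first. The nearest region of the untreated-labelled library to any of these 3 lay 14811 bases away. That region, inside HOOK2 and 16.1 kb below JUNB, was shared, from 12774984 to 12775320 in the lactate-labelled and from 12774986 to 12775360 in the untreated-labelled library. It had pileups of 33 and 32 and fold enrichments of 5.80 and 5.59, a ratio of 1.07 (interval 0.638 to 1.80).

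JUND, the JUN gene known for steady expression in resting cells, lies on chromosome 19 from 18279694 to 18281622, minus strand. A region covered its whole promoter sequence in each library, from 18281469 to 18282048 in the lactate-labelled and from 18281545 to 18281995 in the untreated-labelled library. Pileups were 30 and 23 tags, fold enrichments 4.75 and 4.98, and the ratio 1.35 (interval 0.760 to 2.44). It also reached the end of the noncoding gene LOC124904652. Below the gene, at the end of IQCN, a shared region ran from 18274892 to 18275304 and from 18274917 to 18275293, with 26 and 23 tags and fold enrichments of 3.97 and 4.44. Above the gene another ran from 18301193 to 18301583 and from 18301168 to 18301405, with 20 and 17 tags and fold enrichments of 4.57 and 4.31. The ratios of this flanking pair were 1.17 (interval 0.644 to 2.15) and 1.22 (interval 0.608 to 2.48). A region inside IQCN, from 18260753 to 18260952 with 16 tags and a fold enrichment of 3.05, was in the untreated-labelled library alone. JUND was thus the JUN member with its start covered in both libraries and regions on both flanks.

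FOS encodes c-Fos, the classic serum-induced early gene, on chromosome 14 from 75278828 to 75282230. Neither library had a region inside FOS or within 1 kb of its ends. In the lactate-labelled library a region from 75277395 to 75277594, with 12 tags and a fold enrichment of 3.59, ended 1.23 kb before the start, 16297 bases from the nearest region of the other library. In the untreated-labelled library alone, a region from 75293891 to 75294282 at the end of LINC01220 had 12 tags and a fold enrichment of 5.24. The only shared region lay 19.5 kb below the gene, from 75258781 to 75259368 in the lactate-labelled and from 75258878 to 75259299 in the untreated-labelled library. It had 15 and 12 tags, fold enrichments of 6.72 and 5.46, and a ratio of 1.30 (interval 0.567 to 3.04). The interval spans 1, so no difference between the libraries was detectable at this depth in the shared FOS region.

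FOSB, whose spliced form ΔFosB is long-lived, lies on chromosome 19 from 45467996 to 45475179. Its strongest shared region was 11.4 kb below the gene, where 1 region from 45455475 to 45456550 in the lactate-labelled library overlapped regions from 45455496 to 45456034 and from 45456211 to 45456523 in the untreated-labelled library. The highest pileups were 47 and 43 tags and the fold enrichments 8.25 and 7.77, at percentiles of 93.7 and 94.4 within their lists, and the weaker of the untreated-labelled pair had 20 tags and 3.78. The ratio was 1.13 (interval 0.734 to 1.76). Inside ERCC1, a DNA repair gene, a shared region from 45448897 to 45449285 and from 45448908 to 45449274 had 31 and 19 tags, fold enrichments of 4.72 and 3.31, and a ratio of 1.69 (interval 0.927 to 3.17). In the gene body the libraries had separate regions 253 bases apart, from 45470245 to 45470444 with 27 tags and a fold enrichment of 2.88 in the lactate-labelled library, and from 45469713 to 45469992 with 16 tags and 2.44 in the untreated-labelled library. Just above the gene, 0.220 kb from its end, the lactate-labelled library alone had a region from 45475399 to 45476133 with 28 tags and a fold enrichment of 2.58. The highest fold enrichment at any AP-1 gene, 9.41 with 31 tags, belonged to a region of the lactate-labelled library alone from 45485292 to 45485608. It lay at an end of RTN2, a reticulon gene, 10.1 kb above FOSB.

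FOSL1 encodes FRA-1, an AP-1 subunit associated with invasive growth in carcinoma cells, on chromosome 11 from 65892049 to 65900545. The region at its upper end had the highest ratio among the 14 shared loci of the FOS members. It ran from 65900272 to 65900720 in the lactate-labelled and from 65900279 to 65900704 in the untreated-labelled library. Pileups were 71 and 42 tags, fold enrichments 5.01 and 3.66, and the ratio 1.75 (interval 1.18 to 2.63). Above it, regions from 65902865 to 65903559 and from 65902897 to 65903383 had 54 and 41 tags, fold enrichments of 4.48 and 4.08, and a ratio of 1.37 (interval 0.894 to 2.1). At the lower end the lactate-labelled library alone had a region from 65891956 to 65892167, which also reached the end of CCDC85B, with 45 tags and a fold enrichment of 2.13. That was the lowest fold of all regions at the AP-1 genes, at the 0.0497th percentile of its list. Where FIBP ends, a shared region from 65888232 to 65888768 and from 65888401 to 65888929 had 49 and 44 tags and fold enrichments of 2.62 in both, with a ratio of 1.16 (interval 0.754 to 1.78).

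Farther out in the FOSL1 window, most regions lay at other genes. A shared region at no other gene, from 65911517 to 65912464 and from 65911714 to 65912458, had 65 and 51 tags, fold enrichments of 3.79 and 3.76, and a ratio of 1.32 (interval 0.903 to 1.95). At C11orf68, regions from 65915408 to 65916032 and from 65915701 to 65915965 had the highest pileups of the family, 77 and 56 tags, with fold enrichments of 3.45 and 3.28 and a ratio of 1.43 (interval 0.999 to 2.05). Near the ends of C11orf68 and DRAP1, regions from 65919180 to 65919395 and from 65918707 to 65919406 had 40 and 34 tags, fold enrichments of 2.31 and 2.54, and a ratio of 1.22 (interval 0.754 to 1.99). The untreated-labelled one also overlapped the body of C11orf68. At EFEMP2, 1 region was in each library alone, from 65872003 to 65872354 with 27 tags and 2.85 in the lactate-labelled library, and from 65873553 to 65873752 with 31 tags and 3.35 in the untreated-labelled library. All 6 shared FOSL1 loci thus had a higher pileup per tag sequenced in the lactate-labelled library, while fold enrichment was higher there in 4, equal in 1 and lower in 1.

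Local background set FOSL1 apart from the other members. This background is drawn from the same library's tags around each region, so neighbouring regions add to it. The background, recomputed from pileup and fold, had a median over its regions of 1.10 tags per 1000000 in the lactate-labelled and 0.815 in the untreated-labelled library, against 0.146 and 0.135 over all regions. Only 0.216% and 0.382% of all regions reached those medians. In the 1 Mb to either side of the window the median was 0.471 over 167 regions and 0.431 over 135, so the surroundings were also raised, and 6 and 8 of those regions reached the FOSL1 medians. At FOS the median was 0.132 and 0.0911, the lowest of the members with a region. Copy number and open chromatin were not measured here, and their part in the FOSL1 background was not tested.

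**Figure D3:**
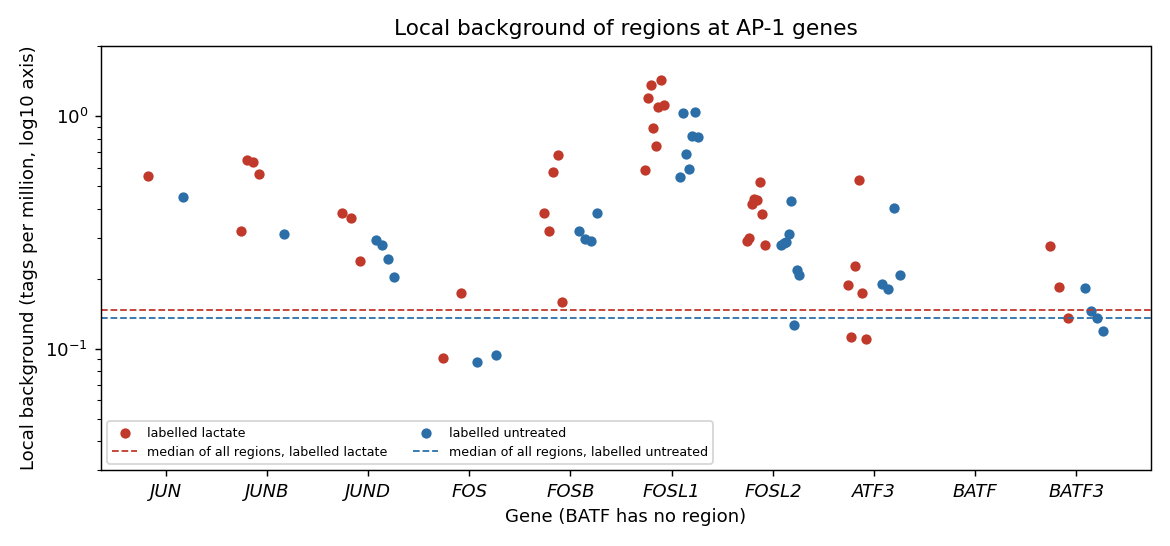
Local background in tags per 1000000 (y axis, log10 scale) for every region at the 9 AP-1 genes that have one (x axis), with the lactate-labelled library in red at the left and the untreated-labelled library in blue at the right of each gene; dashed lines are the medians over all regions, 0.146 and 0.135. FOSL1 regions sit at 0.585 to 1.43 and 0.544 to 1.04, above both lines.

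FOSL2, which encodes FRA-2, lies on chromosome 2 from 28392858 to 28417317. Its start was covered in both libraries, from 28392483 to 28392911 in the lactate-labelled and from 28392597 to 28392911 in the untreated-labelled library, within the antisense gene FOSL2-AS1. Pileups there were 29 and 33 tags, fold enrichments 3.97 and 5.78, and the ratio 0.912 (interval 0.534 to 1.55). Inside the gene a region from 28408963 to 28409695 and from 28408981 to 28409676 had 53 and 34 tags and fold enrichments of 6.09 and 4.50, the highest fold at FOSL2 in the lactate-labelled library. Its ratio, 1.62, had an interval of 1.03 to 2.57. The lactate-labelled library alone also had a body region from 28413580 to 28413779 with 26 tags and a fold enrichment of 4.01. Before the start, within FOSL2-AS1, it alone had regions from 28390330 to 28390664 with 21 tags and 3.01, and from 28391630 to 28391829 with 22 tags and 3.02. The ratio was thus below 1 at the start of FOSL2 and above 1 in its body, and the counting interval lay above 1 at the body region and spanned 1 at the start.

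On the flanks of FOSL2 the intervals of all 3 shared loci spanned 1. Within LOC105374383, regions from 28377208 to 28377664 and from 28377219 to 28377647 had 25 and 20 tags, fold enrichments of 4.83 and 3.92, and a ratio of 1.30 (interval 0.692 to 2.46). Next to it, 1 region from 28377890 to 28378550 in the lactate-labelled library overlapped regions from 28378020 to 28378292 and from 28378438 to 28378808 in the untreated-labelled library. The highest pileup was 23 tags in each, with fold enrichments of 4.36 and 4.41 and a ratio of 1.04 (interval 0.557 to 1.94), and the weaker untreated-labelled region had 14 tags and 2.72. Above the gene, 1 region from 28436519 to 28437731 likewise overlapped regions from 28436490 to 28437011 and from 28437168 to 28437539. It had 23 tags against 21 and 14, fold enrichments of 4.60 against 4.98 and 3.52, and a ratio of 1.14 (interval 0.602 to 2.16). A region from 28431007 to 28431405 with 13 tags and a fold enrichment of 4.70 was in the untreated-labelled library alone.

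ATF3, a stress-induced gene whose protein often represses AP-1 sites, lies on chromosome 1 from 212565407 to 212620777. Its strongest region lay inside the gene, from 212608282 to 212609069 in the lactate-labelled and from 212608253 to 212608995 in the untreated-labelled library. Pileups were 70 and 52 tags, fold enrichments 7.89 and 7.26, and the ratio 1.40 (interval 0.962 to 2.04). The summits lay 6324 and 6301 bases from the nearest start with a matched promoter sequence. Also inside, regions from 212595933 to 212596694 and from 212595649 to 212596557 had 28 and 16 tags, fold enrichments of 6.56 and 4.45, and a ratio of 1.82 (interval 0.95 to 3.59). The lactate-labelled library alone had a region from 212567132 to 212567430, with 17 tags and a fold enrichment of 6.67, whose summit lay 1874 bases from the first start. Inside ATF3 there were thus 3 of its 6 lactate-labelled and 2 of its 4 untreated-labelled regions. Neither of its 2 starts with a matched promoter sequence was covered, and any other start was not examined.

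Around ATF3 the shared regions were weaker. Below the gene, regions from 212561503 to 212561741 and from 212561510 to 212561878 had 20 and 12 tags, fold enrichments of 5.50 and 3.27, and a ratio of 1.73 (interval 0.806 to 3.88). Within the noncoding gene LINC02773, regions from 212630119 to 212630530 and from 212630097 to 212630379 had 19 and 13 tags, fold enrichments of 5.52 and 3.29, and a ratio of 1.52 (interval 0.711 to 3.34). A further region there, from 212636891 to 212637362 with 9 tags and 3.76, was in the lactate-labelled library alone. In each of the 4 shared ATF3 loci both pileup and fold enrichment were higher in the lactate-labelled library, and none of the counting intervals excluded a ratio of 1.

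BATF3 and BATF encode short zipper proteins known mainly from immune cells, where they act with JUN and interferon regulatory factors. BATF3 lies 65.6 kb above ATF3, on chromosome 1 from 212686417 to 212699840. The region at its upper end ran from 212699069 to 212699702 in the lactate-labelled and from 212699123 to 212699449 in the untreated-labelled library. It had 10 and 14 tags, fold enrichments of 3.62 and 5.24, and the lowest ratio of the family, 0.742 (interval 0.295 to 1.79). Below the gene, regions from 212667432 to 212667858 and from 212667628 to 212667827 had 25 and 13 tags and fold enrichments of 5.04 and 3.61, with the highest ratio, 2.00 (interval 0.983 to 4.25). Nearer by, regions from 212671583 to 212671906 and from 212671690 to 212672014 had 22 and 14 tags, fold enrichments of 6.08 and 4.57, and a ratio of 1.63 (interval 0.798 to 3.45). Inside BATF3 the untreated-labelled library alone had a region from 212693283 to 212693482 with 12 tags and a fold enrichment of 4.14. The whole stretch between ATF3 and BATF3 held 6 regions in the lactate-labelled and 4 in the untreated-labelled library, of which 4 and 4 were shared.

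BATF, on chromosome 14 from 75522469 to 75546992, had no region in its window in either library. The nearest one of the lactate-labelled library lay 68.8 kb below it, with 11 tags and a fold enrichment of 4.17. In the untreated-labelled library the nearest was 114 kb above, with 13 tags and 6.42. Between FOS and BATF, a stretch that includes the AP-1 partner gene JDP2, there were 4 and 2 regions, 1 of them shared in each library.

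Setting both libraries side by side, 26 loci at the AP-1 genes were shared, 14 were in the lactate-labelled library alone and 6 in the untreated-labelled library alone. Of the 40 lactate-labelled regions 26 overlapped the other library (65.0%, interval 48.3 to 79.4), and of the 35 untreated-labelled regions 29 did (82.9%, interval 66.4 to 93.4). Over all regions the shares were 61.2% and 71.2%, within those intervals. Of the 14 lactate-labelled regions without a partner, 9 were among the weakest 10% of their list by fold, at JUNB, FOSB, FOSL1 and FOSL2, as were 17.4% of all such regions. Of the 6 untreated-labelled ones 2 were (17.3% of all). Pileup gave another picture, since 12 of the 14 exceeded the median pileup of their list, as did 3 of the 6, against 24.4% and 17.6% of all regions without a partner. This was not limited to regions without a partner, since 36 of all 40 and 24 of all 35 AP-1 regions exceeded that median. Local background exceeded the list's median in 36 of the 40 and in 31 of the 35 AP-1 regions.

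**Figure D4:**
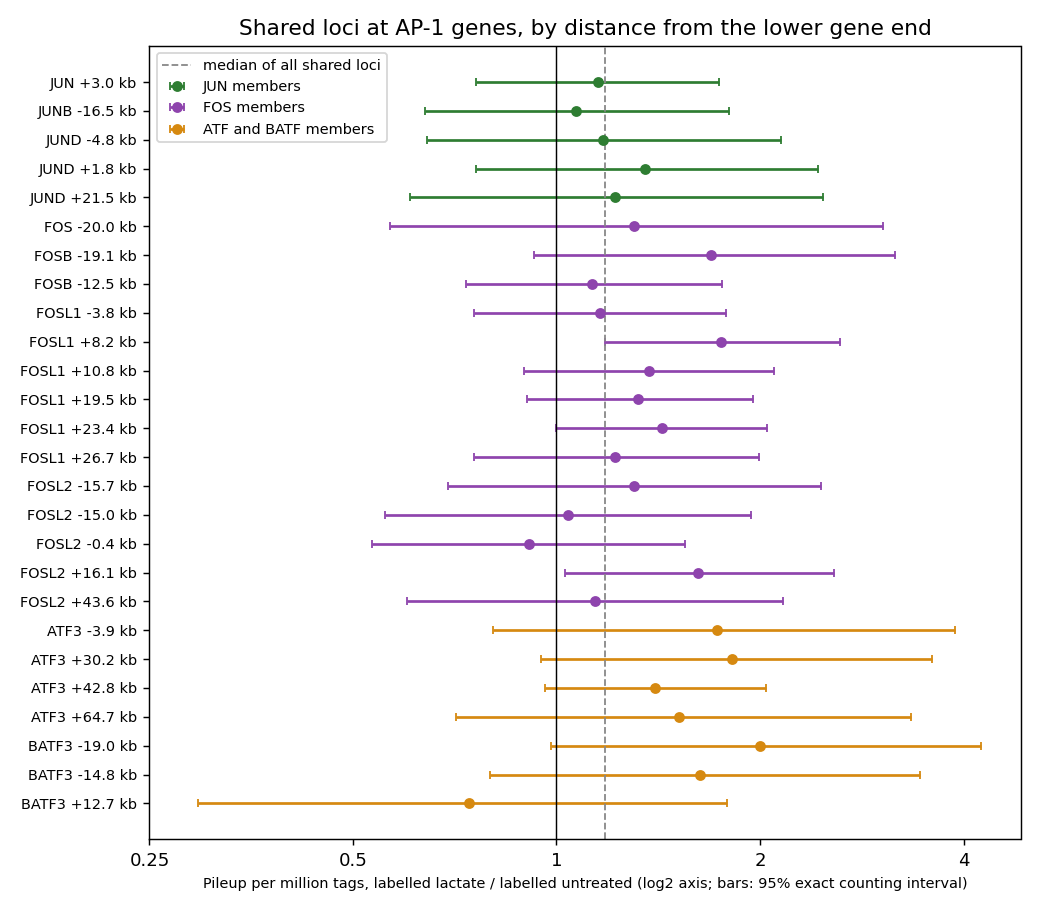
Pileup per 1000000 tags in the lactate-labelled over the untreated-labelled library (x axis, log2 scale) for the 26 shared loci (y axis, named by gene and by distance of the locus start from the lower gene end in kb), with exact 95% counting intervals as bars; green, purple and orange mark JUN, FOS and ATF or BATF members, and the dashed line is the median of all shared loci, 1.18. Points lie right of 1 in 24 of 26 loci, and most bars cross 1.

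In 24 of the 26 shared loci the pileup per 1000000 tags was higher in the lactate-labelled library, against 71.2% of the 30217 shared loci of the genome. The median ratio was 1.31, and that over all shared loci was 1.18, also above 1. A ratio of at least 1.5 was reached by 8 of 26 AP-1 loci (20.3% of all), and 0 of 26 were at or below 1/1.5 (2.94% of all). In 2 of 26 the counting interval lay above 1, at the upper end of FOSL1 and inside FOSL2, as it did in 5.05% of all shared loci. The lower bounds of these intervals were 1.18 and 1.03, beside the median ratio of 1.18 over all shared loci. By fold enrichment 17 of 26 were higher in the lactate-labelled library, against 63.6% of all shared loci. The background below the peaks had medians of 0.383 and 0.288 tags per 1000000 over the AP-1 regions. It is drawn from the same library's tags, so it is not independent of the pileups. Its part in the ratios was not tested.

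By role, the median ratio was 1.17 over the 5 shared loci of the JUN members, with a range of 1.07 to 1.35. It was 1.30 over the 14 of the FOS members, with a range of 0.912 to 1.75, and 1.63 over the 7 of the ATF and BATF members, with a range of 0.742 to 2.00. All 7 lay at ATF3 and BATF3, neighbours 65.6 kb apart on chromosome 1, and none at BATF. The ranges overlap, loci at 1 gene are not independent, and with the lists exchanged each ratio would be inverted. The median fold enrichments were 4.27 and 4.71 for JUN members, 3.97 and 3.78 for FOS members and 5.52 and 4.29 for ATF and BATF members. Against a median of 4.87 and 4.63 over all regions, the ATF and BATF regions were above it in the lactate-labelled library and below it in the other. A fold enrichment of at least 5 was reached by 7 of 9 ATF and BATF regions in the lactate-labelled and by 2 of 8 in the untreated-labelled library. Over all 10 genes it was reached by 14 of 40 and 8 of 35, against 47.3% and 39.6% of all regions.

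**Figure D5:**
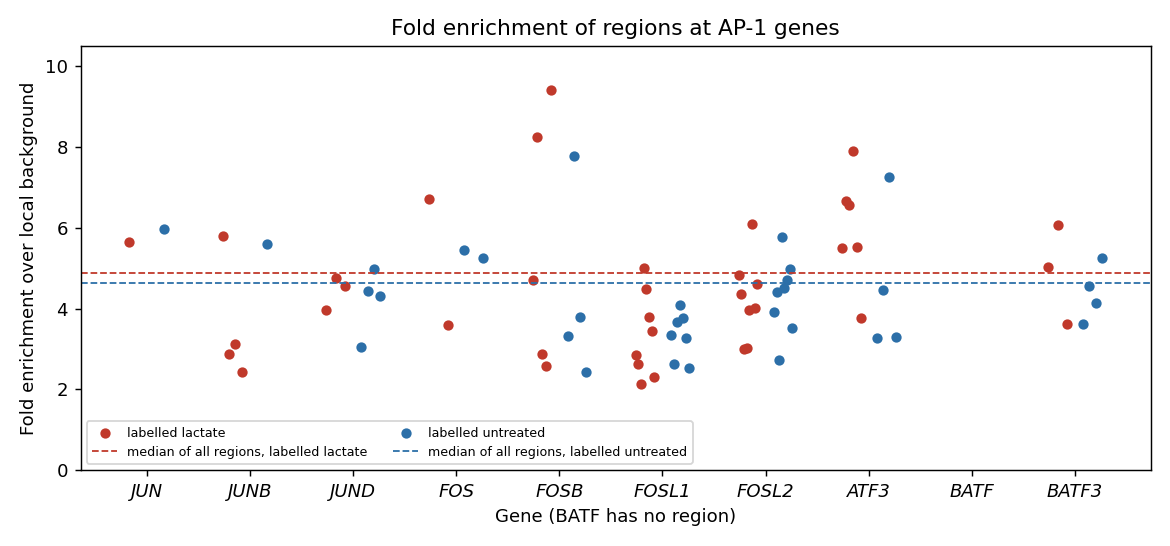
Fold enrichment over local background (y axis) of every region at each AP-1 gene (x axis), with the lactate-labelled library in red at the left and the untreated-labelled library in blue at the right; dashed lines are the medians over all regions, 4.87 and 4.63. FOSL1 points reach 5.01 and 4.08 at most, and the highest points are the FOSB flanks, at 9.41 and 8.25 in the lactate-labelled library.

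At gene ends, taken as 1 kb to either side of both ends, 7 of the 10 genes had a region in the lactate-labelled and 5 in the untreated-labelled library, against 49.5% and 43.5% of all protein-coding genes. JUN, JUND, FOSL1, FOSL2 and BATF3 had one in both libraries (39.8% of all genes), JUNB and FOSB in the lactate-labelled library alone (9.70%), none in the untreated-labelled library alone (3.74%), and FOS, ATF3 and BATF in neither (46.8%). This order between the libraries turned with stronger peaks. At a fold enrichment of at least 5 the counts were 2 and 3 genes, and with equal lists of the strongest regions 1 and 4.

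Stitching loci no more than 3 kb apart gave 4 clusters of 3 loci at 3 of the 10 genes, JUNB, FOSL1 and FOSL2, whereas 7.32% of protein-coding genes had a cluster in their window. The JUNB cluster spanned 3.83 kb across the gene and lay in the lactate-labelled library alone. At FOSL2 the cluster ran 2.58 kb up to the start, with 3 lactate-labelled regions covering 964 bp and 1 untreated-labelled region covering 315 bp. FOSL1 had a shared cluster of 7.89 kb above the gene, covered over 1789 and 1710 bp. Its other cluster, of 2.66 kb at EFEMP2, reached past the window and held 2 lactate-labelled regions and 1 untreated-labelled region, none shared. With a stitching gap of 1 kb there was 1 cluster at the AP-1 genes, and with the widest gap tried there were 8.

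The limit of 20 kb left close regions out. Just inside it were a FOSL2 region of the untreated-labelled library at 19.9 kb and a FOSL1 region of the lactate-labelled library at 19.7 kb. Just outside were regions below BATF3 in the lactate-labelled library at 20.6 kb, with a fold enrichment of 7.05, and below FOSB at 20.7 kb in both libraries, with 4.73 and 4.15. A FOSL1 region of the lactate-labelled library also lay outside, at 20.6 kb, with 2.41.

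The other genes of the pathway were counted by their ends in the same way. Of 72 genes in 5 lists, 52 (72.2%) had a region there in the lactate-labelled library and 47 (65.3%) in the untreated-labelled library, beside the 49.5% and 43.5% of all genes, with 44 in both, 8 in the lactate-labelled library alone and 3 in the other alone. Of 17 zipper partners 13 and 12 had one, of 20 upstream kinases 16 and 14, of 6 serum response factors 4 and 4, of 13 other early response genes 10 and 10, and of 16 known targets 9 and 7. Among partners, ATF7 (fold enrichments 8.23 and 8.71) and ATF2 (7.83 and 9.59) were highest of those in both, and ATF1 (4.43) was in the lactate-labelled library alone. Among kinases, RPS6KA5, which encodes the histone kinase MSK1, had 10.6 and 6.16 and MAPK14, the p38α gene, 8.43 and 4.24, while RPS6KA3 (3.92) and MAP2K3 (3.47) were in the lactate-labelled library alone.

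The serum response factors ELK1 (7.09 and 7.78) and ELK4 (4.60 and 5.90), which bind the FOS promoter, had end regions in both libraries, as did the early genes CCN2 (6.79 and 4.71) and MCL1 (6.78 and 5.70). The known targets were the list with most members in a single library. TIMP1, a metalloproteinase inhibitor gene (5.96), EZR (5.31) and IVL, the involucrin gene (3.53), were among 5 in the lactate-labelled library alone. PLAUR, the urokinase receptor gene (8.18), MMP10 (4.28) and VIM (4.17) were the 3 in the untreated-labelled library alone, although the lactate-labelled library had 4, 6 and 1 regions inside or within 20 kb of them. SPRR1B (8.15 and 6.07) and IL6 (4.31 and 4.68) had end regions in both. The lists differ in size and their genes in length, and nothing is read from them about a single pathway.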

How the data were processed

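Both libraries were processed by the authors. The tools listed in the submitters' processing notes are BWA, MACS2 (2.1.0) and fastp (0.20.0), and the build listed is hg38. According to the deposited headers, MACS 2.1.0.20150420 called peaks in each library without a control, at a q threshold of 0.05, a shift of -100 and an extension of 200 bp. The deposited pileup is a signal in tags at the summit, not scaled for depth. The deposited fold enrichment is a ratio of pileup to local background, with 1 added to both. Without a control, that background is drawn from the library's own tags, with a regional window of 10000 bp. It thus includes tags of the peak and its neighbours.

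Here summits of the same start and end were collapsed to regions, represented by the summit of highest fold. Overlap meant at least 1 bp, and overlapping regions of the libraries made a locus. Its ratio used the highest pileup of each library per 1000000 tags, with an exact binomial interval. Local background was recomputed from pileup and fold. Genes came from the RefSeq table (GRCh38.p14), which gives neither strand nor exons. Start sites and strand came from the promoter table. No exon or intron split was made. Artefact-prone stretches were not filtered.

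The members and lists were chosen with earlier results of these data known. Besides the members, genes holding a member's region, and by fold up to 3 genes per list in 1 library alone and 2 in both, were named. No test was run, since each condition had 1 library. Overlap and window counts were checked on planted regions. Versions were SciPy 1.17.1, pandas 2.3.3, matplotlib 3.10.9, numpy 2.4.6 and Python 3.11.15.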

Additional observations from a re-analysis of the deposited data

How the results depend on the processing

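Counts of regions followed the window and the peak threshold. The lactate-labelled library had more under each, but its whole list was also longer. It held 50352 regions against 43680, and 23840 against 17310 at a fold of at least 5. In the lactate-labelled and the untreated-labelled library they were 23 and 14 within 5 kb, 66 and 56 within 50 kb, 13 and 10 in gene bodies alone, 14 and 8 when a fold of 5 or more was required, and 12 and 11 when each list was reduced to its 21840 strongest regions (equal lists). The shared percentages were 35.7 and 62.5 at a fold of at least 5, and 41.7 and 45.5 with equal lists. Genes with an end region numbered 2 and 3 at a fold of at least 5, and 1 in the lactate-labelled list with equal lists, against 4. Clusters numbered 2 within 5 kb, 2 at gene bodies, 0 at a fold of at least 5, 0 with equal lists, 1 with a gap of 1 kb and 8 with the widest gap tried. Counting every summit gave 9, by a looser rule. There a stitched group needed 3 or more summits in 1 library in place of 3 or more loci, so a single region could qualify. The median pileup ratio was 1.15 over 5 loci under both stricter lists, 1.11 when scaled to the median of all shared loci and 1.06 by fold enrichment. Exchanging the lists, an alternative added after seeing the data, turned it to 0.763. Leaving out FOSL1, added likewise, gave 32 and 28 regions and a ratio of 1.30. Among the summary values recomputed, 41 stayed within 1.5 times the reported count or within the counting interval, 28 did not and 1 turned. The 1 that turned was the exchange of the lists, which inverts the ratio by arithmetic and so tests nothing. No paired analysis was possible because each group has 1 library. Depth limits single loci: most had under 60 tags, and counting error alone spanned a ratio of 1 in 24 of 26.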
